A study of Mus musculus with 16 samples.

Results

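Chromatin accessibility was examined at the loci of 8 endoderm transcription factor genes, Hnf4a and Hnf4g (HNF4 family), Foxa1, Foxa2 and Foxa3 (FOXA family) and Onecut1, Onecut2 and Onecut3 (ONECUT family), in mouse pancreatic ductal adenocarcinoma (PDAC) cells growing in the pancreas, the liver or the lung. A region of open chromatin (peak) was taken as a member when the protein-coding start site nearest to its midpoint, within 100 kb, belonged to one of these genes. The assignment of peaks to genes used position alone and no measured value, but the genes were chosen with earlier results of these data known. The rule gave 99 of the 136630 peaks on nuclear chromosomes. Foxa2 held 22 of them, Hnf4g 21, Onecut2 15, Foxa1 14, Hnf4a 10, Onecut3 10 and Onecut1 7. Foxa3 held 0, because the peak over its start region has the start site of another gene, Sympk, nearer to its midpoint.

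The cells were KC-shSmad4 cells, derived from primary tumors of mice with pancreas-specific Ptf1a-Cre and a doxycycline (Dox)-inducible, GFP-linked short hairpin RNA against Smad4, and they also carried the red fluorescent protein mKate2 and luciferase. All 16 samples came from the same model, transplanted into female nude (Foxn1nu) mice aged 6 to 8 weeks that were kept on Dox, so that Smad4 was silenced while the tumors formed. Cells were placed in the pancreas (100000 cells), reached the liver from the spleen (400000 cells) or reached the lung from the tail vein (250000 cells). In the Smad4 OFF groups Dox was kept on, and in the Smad4 ON groups it was withdrawn at 4, 5 or 6 weeks for pancreas, liver and lung and Smad4 was restored for 14 days, although the lung columns of the deposited table are named for day 15. The groups were Panc_OFF (n = 3), Panc_ON (n = 3), Liv_OFF (n = 2), Liv_ON (n = 2), Lung_OFF (n = 3) and Lung_ON (n = 3), with 60000 sorted mKate2+ cells per mouse. The route of injection, the number of cells and the time of growth differed with the organ and cannot be told apart from it. Nude mice lack mature T cells, which limits them as a model of the disease. The paper reports that most of the lines it sequenced from tumors of this model had lost both copies of Cdkn2a and Cdkn2b. It describes this loss as matching human PDAC, in which SMAD4 alterations are associated with deletion of the same genes. Which of the lines gave these 16 samples is not given in the sources used here. ATAC-seq, in which the Tn5 transposase inserts sequencing adapters into open chromatin, does not measure RNA, so these data hold no check of Smad4 itself, and they give the accessibility of a locus, not the amount of the factor.

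HNF4 proteins are nuclear receptors that sustain gene programs of liver, gut and kidney epithelium. FOXA proteins are pioneer factors: they bind their sites on nucleosomes and help to open chromatin for other factors, among them HNF4 proteins. ONECUT proteins bind DNA through a cut domain and a homeodomain and act in the early development of liver and pancreas, where the 3 families regulate each other. Hnf4a is transcribed from an upstream promoter, called P2 and used in pancreas and gut, and from a downstream promoter, called P1 and typical of adult hepatocytes. Foxa1 and Foxa2 overlap in function in endoderm, while Foxa3 is known for its role in mature liver. SMAD4 carries TGFβ signals to chromatin together with the receptor-activated SMADs.

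The libraries held 22994669 to 38218315 reads in peaks. Markers fixed for pancreatic tumor epithelium had a peak at the start site for 6 of 6 genes in these libraries, with a summed level of 45609 to 45694 normalized counts in Liv_OFF, 34225 to 43323 in Liv_ON, 19350 to 29265 in Lung_OFF, 22632 to 25303 in Lung_ON, 17679 to 20631 in Panc_OFF and 12409 to 16504 in Panc_ON. Their order by organ was thus the order in which several of the factor loci below were found, and the part of this in each result was not tested. Of 10 hepatocyte markers, 1 had such a peak, Ttr, with 164 to 231 normalized counts in Liv_OFF and 52.5 to 96.7 in Lung_OFF, and Alb, the defining one, had no peak at its start site. Of 6 lung epithelial markers 2 had a peak (Ager and Foxj1), with a sum of 832 to 1000.4 in Liv_OFF and 674 to 734 in Lung_OFF. All 6 fibroblast markers had one, with a sum of 1747 to 2899 across the pancreatic samples, 896 to 1044 across the liver samples and 1055 to 1423 across the lung samples. Of 6 acinar markers 2 had a peak, with a sum of 309.8 to 357 in Liv_OFF, 171 to 229 in Lung_OFF, 159 to 184 in Panc_OFF and 109 to 142 in Panc_ON. The 2 of 6 endocrine markers with a peak summed to 191 to 369 in Liv_OFF, 153 to 706 in Lung_OFF, 546 to 631 in Panc_OFF and 723 to 1269 in Panc_ON. Of 6 leukocyte markers 1 had a peak, at 6.17 to 19.5 in Liv_OFF, 19.6 to 25.0 in Panc_OFF and 29.3 to 54.4 in Panc_ON. Endothelial markers (6 of 6) were at 302 to 317 in the other Lung_OFF samples but at 1012 in Lung_OFF replicate 1, which stood apart in that respect and was therefore left out in turn. In sorted bulk cells, more cells of one kind and more open chromatin per cell cannot be told apart.

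The member peaks lay mainly outside promoters: 59 were intronic (59.6%, against 47.7% of all peaks), 28 intergenic (28.3%, against 38.5%), 6 within 1000 bp of a start site (6.06%, against 9.76%) and 6 exonic (6.06%, against 3.98%). They measured 201 to 17728 bp, with a median of 613 bp, close to the 589 bp of all peaks. Each peak is named here by its gene and the distance in kb of its midpoint from the most upstream annotated start site, positive in the direction of transcription. All coordinates are those of mm10. Of the Foxa2 peaks, 12 lay downstream of the gene in introns of the long noncoding RNA 9030622O22Rik, and the far downstream Foxa1 peaks lay within Mipol1. These host genes could themselves be what such a peak acts on, which ATAC-seq does not resolve.

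The following sequences come from the peaks with the clearest difference between liver and lung, with Smad4 off, that held a chosen motif, and from the upstream promoters of Foxa1 and Hnf4a. For peaks more open in liver the motif had to be HNF1, HNF4 or FOX, and for peaks less open in liver AP-1, so that which motif appears in which set was fixed by this choice and is no result. Capitals mark the match to a motif string searched on both strands: GTTAATNAT for HNF1, TGTTTAC for the forkhead family (FOX), TATCGAT or TATTGAT for ONECUT and TGANTCA for AP-1, of which no pair contains each other. A match is a string in the DNA and not a bound site. Peak windows reach up to 60 bases on each side of the match and are on the + strand of GRCm38, the assembly behind mm10, and upstream windows span the bases 250 to 51 before the RefSeq start site, on the strand of the gene. The first 3 are windows from peaks that were more open in Liv_OFF than in Lung_OFF.
Hnf4g +105.8 kb, chr3:3613724-3613852, + strand, HNF1 in capitals: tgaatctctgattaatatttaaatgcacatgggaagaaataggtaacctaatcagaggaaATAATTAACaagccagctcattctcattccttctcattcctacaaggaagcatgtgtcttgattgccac
Foxa1 +17.4 kb, chr12:57528280-57528360, + strand, FOX in capitals: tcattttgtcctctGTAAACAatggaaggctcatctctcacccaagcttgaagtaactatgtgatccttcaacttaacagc
Foxa2 +78.5 kb, chr2:147968754-147968882, + strand, HNF1 in capitals: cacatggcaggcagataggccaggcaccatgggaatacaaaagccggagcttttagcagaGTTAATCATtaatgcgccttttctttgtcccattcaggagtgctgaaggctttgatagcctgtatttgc
The next windows come from peaks that were less open in Liv_OFF than in Lung_OFF, and each holds an AP-1 string.
Hnf4g +211.9 kb, chr3:3719926-3720052, + strand, AP-1 in capitals: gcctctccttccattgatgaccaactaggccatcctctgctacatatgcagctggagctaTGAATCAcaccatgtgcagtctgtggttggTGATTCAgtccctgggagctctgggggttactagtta
Foxa2 +33.3 kb, chr2:148013231-148013357, + strand, AP-1 in capitals: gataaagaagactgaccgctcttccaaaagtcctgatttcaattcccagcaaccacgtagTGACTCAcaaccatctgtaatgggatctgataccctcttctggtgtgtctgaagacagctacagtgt
Onecut1 +6.3 kb, chr9:74868376-74868502, + strand, AP-1 in capitals: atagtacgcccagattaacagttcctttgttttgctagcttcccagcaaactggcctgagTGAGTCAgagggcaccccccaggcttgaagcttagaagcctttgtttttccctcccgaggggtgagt
Onecut3 -1.2 kb, chr10:80493520-80493646, + strand, AP-1 in capitals: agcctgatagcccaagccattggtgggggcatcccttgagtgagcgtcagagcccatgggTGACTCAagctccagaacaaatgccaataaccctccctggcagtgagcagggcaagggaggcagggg
The upstream windows are shown because the Foxa1 window holds a FOX string and the Hnf4a P2 window an ONECUT string, while the Hnf4a P1 window held none of the motifs searched. A FOX string is present in 2.58% and an ONECUT string in 1.7% of 32851 RefSeq windows of this length.
Foxa1 upstream, chr12:57546162-57546361, - strand, FOX in capitals: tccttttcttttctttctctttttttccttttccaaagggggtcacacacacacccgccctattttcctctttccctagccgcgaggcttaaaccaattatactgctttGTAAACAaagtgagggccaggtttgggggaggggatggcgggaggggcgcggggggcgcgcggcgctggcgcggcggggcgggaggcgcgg
Hnf4a P2 upstream, chr2:163506607-163506806, + strand, ONECUT in capitals: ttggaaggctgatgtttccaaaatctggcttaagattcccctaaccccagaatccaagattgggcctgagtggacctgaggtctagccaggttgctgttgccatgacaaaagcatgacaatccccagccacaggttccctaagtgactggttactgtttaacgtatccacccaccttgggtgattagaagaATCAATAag
Hnf4a P1 upstream, chr2:163546905-163547104, + strand, no match: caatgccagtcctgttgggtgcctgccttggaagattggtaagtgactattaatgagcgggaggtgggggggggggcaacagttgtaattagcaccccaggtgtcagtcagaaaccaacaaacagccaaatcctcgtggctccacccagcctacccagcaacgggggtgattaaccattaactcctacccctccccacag

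The main question was whether these loci differ between liver and lung metastases while Smad4 is off. The HNF4 genes and Foxa1 were more open in Liv_OFF than in Lung_OFF at many of their peaks. Foxa2 had peaks of both kinds, in shares near those of all peaks, and the called Onecut1 peaks were less open in Liv_OFF. A peak was called when its log2 fold change was at least 0.58 in size with an adjusted p of at most 0.1 (limma on log2 of the normalized count plus 1, Benjamini-Hochberg adjustment over all peaks). Of the 99 member peaks, 38 were called higher and 15 lower in Liv_OFF, where 22.9% of all peaks were called higher and 26.8% lower. The median log2 fold change of the members was 0.51, against 0.00 over all peaks. In 58 of the 99, both Liv_OFF samples lay above all 3 Lung_OFF samples, which was so for 34.9% of all peaks. The count of called members was 37 to 56 when each of the 16 samples was left out in turn, and it was 39 without Lung_OFF replicate 1. All p-values measure the spread between these mice, and each liver group held 2 of them.

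By gene, Hnf4g had 12 peaks called higher and 1 lower of 21 (median log2 fold change 1.16), Hnf4a 5 and 0 of 10 (0.88), Foxa1 6 and 1 of 14 (0.92), Onecut3 5 and 2 of 10 (0.57) and Onecut2 4 and 1 of 15 (0.46). Foxa2 had 6 higher and 6 lower of 22 (0.07), which is 27.3% each and near the 22.9% and 26.8% of all peaks. Onecut1 went the other way, with 0 higher and 4 lower of 7 (-0.91), although its other 3 peaks had positive changes that were not called.

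**Figure D1:**
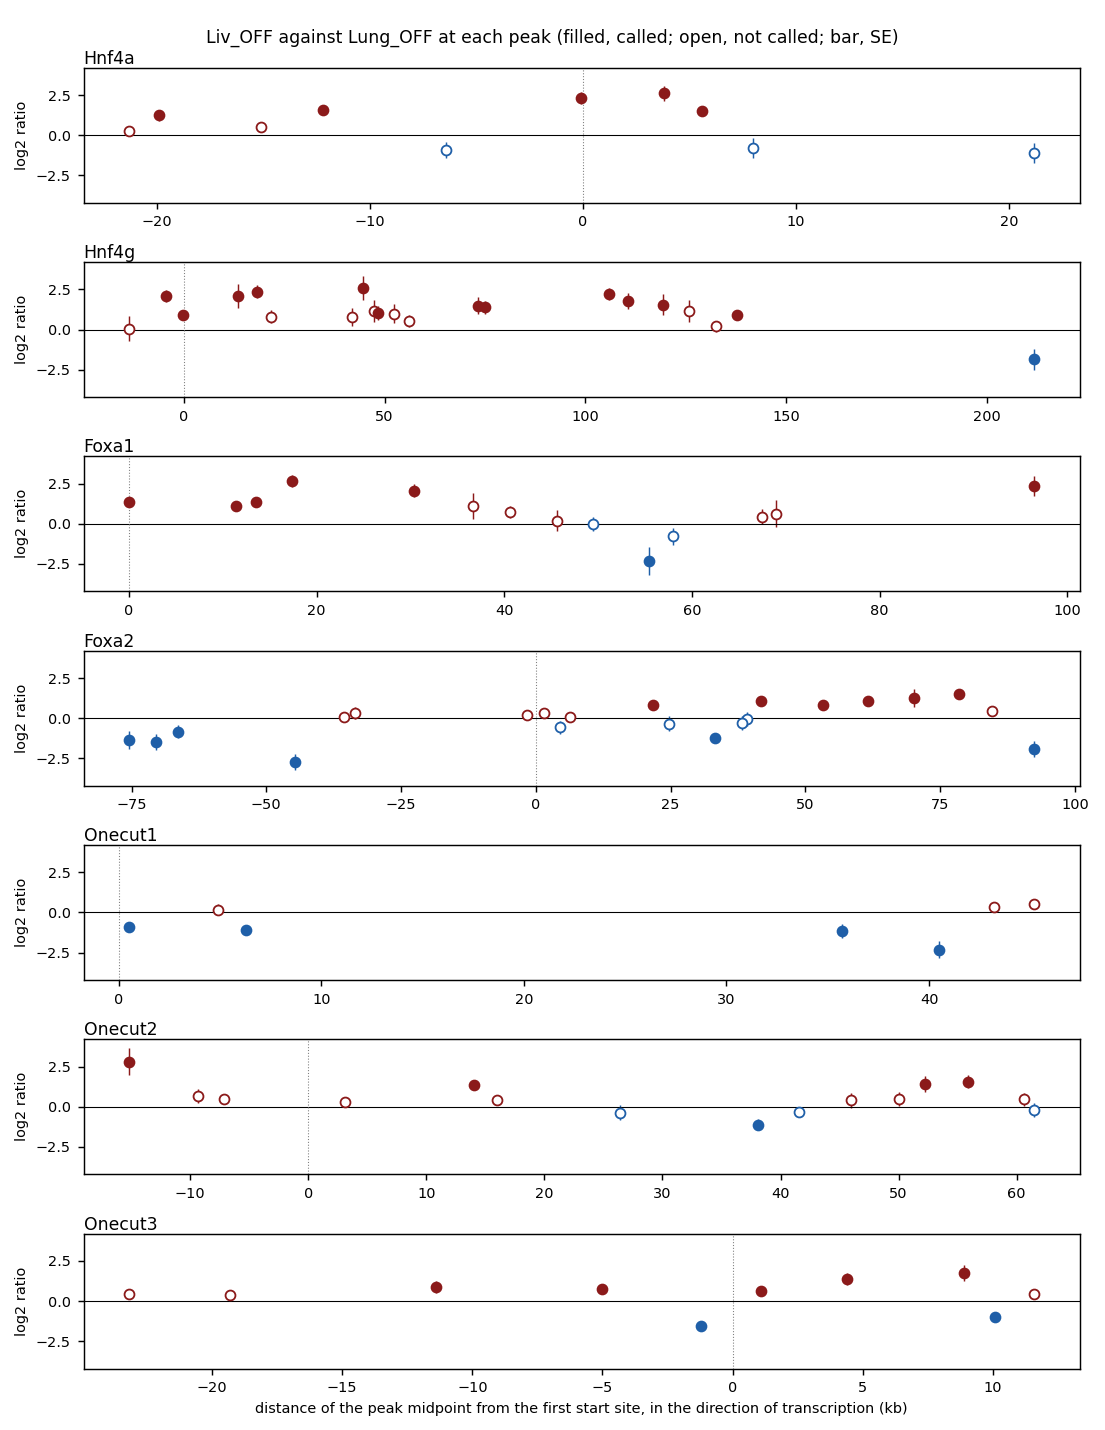
Difference between Liv_OFF and Lung_OFF (log2 fold change, y axis) of each member peak against its distance in kb from the most upstream start site of its gene (x axis), one panel per gene, with called peaks filled, other peaks open and bars for the SE. The Hnf4a and Hnf4g panels lie mostly above 0, Foxa2 holds 6 called peaks on each side, and all 4 called Onecut1 peaks lie below 0.

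Hnf4a showed the clearest liver signal at its P1 start site. The P1 peak (Hnf4a -0.1 kb, chr2:163546686-163547502) held 216 and 229.9 in Liv_OFF, 157 and 239.7 in Liv_ON, 36.8, 64.1 and 36.2 in Lung_OFF, 44.9, 51.8 and 61.6 in Lung_ON, 43.6, 33.9 and 41.7 in Panc_OFF and 20.4, 42.1 and 22.2 in Panc_ON (normalized counts, one value per mouse). Every liver sample lay above every lung and pancreas sample, and the lung and pancreas samples overlapped. The log2 fold change of Liv_OFF against Lung_OFF was 2.31 ± 0.35 (SE), adjusted p = 1.5e-04, a 4.97-fold difference, and against Panc_OFF it was 2.47 ± 0.35 (SE), adjusted p = 5.2e-05. With Smad4 on it remained called, at 1.87 ± 0.35 (SE), adjusted p = 0.0012 against Lung_ON.

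The P2 promoter of Hnf4a is not a member, as its nearest start site in the annotation used is that of R3hdml, and it was added after the values were seen. Its peak (chr2:163506093-163508448) held 1137 and 1189.8 in Liv_OFF, 912 and 1050.1 in Liv_ON, 714, 938 and 882 in Lung_OFF, 769, 756 and 942 in Lung_ON, 687, 557 and 491 in Panc_OFF and 324, 267 and 579 in Panc_ON. P2 was thus open in every organ, and by counts per kb it was more open than P1 in every group. The difference between Liv_OFF and Lung_OFF was 0.47 ± 0.24 (SE), adjusted p = 0.11 and was not called, whereas Liv_OFF exceeded Panc_OFF by 1.02 ± 0.24 (SE), adjusted p = 0.002. The P1 count was 17.2% to 22.8% of the P2 count in the liver samples, 4.10% to 6.84% in the lung samples and 3.84% to 15.7% in the pancreas samples, so the liver samples stood above all others in this ratio too. The ratio was computed within each library and is a description, with no test. It is not corrected for the greater width of the P2 peak. It therefore compares samples and does not say how open P1 is beside P2.

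Inside the gene, the Hnf4a +5.6 kb peak (chr2:163552244-163553293, intronic) held 670.2 and 840.1 in Liv_OFF, 624 and 822 in Liv_ON, 330.5, 243 and 221 in Lung_OFF, 203, 247 and 191 in Lung_ON, 149, 107 and 95.4 in Panc_OFF and 76.4, 66.8 and 165 in Panc_ON. All 4 liver samples were above all lung samples, and the Lung_OFF samples were above the Panc_OFF samples. Its log2 fold change was 1.52 ± 0.32 (SE), adjusted p = 0.0014 against Lung_OFF and 2.69 ± 0.32 (SE), adjusted p = 1.6e-05 against Panc_OFF. The Hnf4a -12.2 kb peak, between P2 and P1, held 323 and 340.0 in Liv_OFF and 95.7, 128 and 113 in Lung_OFF, a log2 fold change of 1.56 ± 0.27 (SE), adjusted p = 3.9e-04. At Hnf4a +3.8 kb it was 2.60 ± 0.46 (SE), adjusted p = 4.4e-04. No Hnf4a peak was called lower in liver in any of the 4 comparisons of liver with lung or pancreas.

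Hnf4g, the paralog of Hnf4a that is best known from the intestine, had 2 annotated start sites. The peak at the upstream one (Hnf4g -0.1 kb, chr3:3506328-3509481) held 969 and 897 in Liv_OFF, 738 and 976 in Liv_ON, 416, 581 and 519.5 in Lung_OFF, 451, 466 and 589 in Lung_ON, 430.4, 355 and 313 in Panc_OFF and 274, 220.4 and 349 in Panc_ON. The liver samples were the highest without overlap, and the Lung_OFF and Panc_OFF samples overlapped. The log2 fold change of Liv_OFF was 0.89 ± 0.21 (SE), adjusted p = 0.0027 against Lung_OFF and 1.36 ± 0.21 (SE), adjusted p = 9.2e-05 against Panc_OFF. At the downstream start site (Hnf4g +125.9 kb) the difference from Lung_OFF was 1.16 ± 0.69 (SE), adjusted p = 0.17, not called here but called in 5 of 29 alternatives, and that from Panc_OFF was 3.08 ± 0.69 (SE), adjusted p = 0.0014.

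Several peaks of Hnf4g away from its start sites differed by more than the upstream start site did. Hnf4g +18.2 kb held 515 and 435 in Liv_OFF, 323 and 470.2 in Liv_ON, 49.7, 169.5 and 89.6 in Lung_OFF, 82.0, 97.8 and 84.0 in Lung_ON, 40.1, 52.7 and 57.4 in Panc_OFF and 33.8, 52.0 and 34.5 in Panc_ON. Liver was above lung, and lung replicates ranged widely. Its log2 fold change was 2.36 ± 0.38 (SE), adjusted p = 2.4e-04 for Liv_OFF against Lung_OFF and 3.23 ± 0.38 (SE), adjusted p = 1.6e-05 against Panc_OFF. Upstream, Hnf4g -4.5 kb held 449 and 459.8 in Liv_OFF, 57.1, 193 and 105 in Lung_OFF and 56.4, 45.6 and 51.9 in Panc_OFF, a log2 fold change of 2.10 ± 0.38 (SE), adjusted p = 4.7e-04 between liver and lung. The intronic Hnf4g +105.8 kb peak, whose HNF1 string is printed above, held 302 and 259 in Liv_OFF and 32.2, 83.7 and 78.4 in Lung_OFF (2.21 ± 0.40 (SE), adjusted p = 4.8e-04). The lone Hnf4g peak called lower in liver was Hnf4g +211.9 kb, at -1.86 ± 0.66 (SE), adjusted p = 0.029, a call lost without Liv_OFF replicate 2 or Lung_OFF replicate 1. It lay farthest downstream of the peaks named here and holds the pair of AP-1 strings printed above.

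Foxa1 was more open in liver at its start site and downstream of it. The start-site peak (Foxa1 +0.0 kb, chr12:57544839-57547480) held 2106 and 2721 in Liv_OFF, 1916 and 2371 in Liv_ON, 781, 1092 and 1002 in Lung_OFF, 905, 990.1 and 1071 in Lung_ON, 857, 1026 and 829.8 in Panc_OFF and 769.8, 704 and 759.6 in Panc_ON. The 4 liver samples were the highest and did not overlap the others, whereas lung and pancreas overlapped. Liv_OFF exceeded Lung_OFF by a log2 fold change of 1.33 ± 0.15 (SE), adjusted p = 2.7e-05, or 2.52-fold, and Panc_OFF by 1.41 ± 0.15 (SE), adjusted p = 9.5e-06. With Smad4 on, Liv_ON exceeded Lung_ON by 1.11 ± 0.15 (SE), adjusted p = 1.6e-04.

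The Foxa1 +17.4 kb peak (chr12:57528280-57529213), which holds the FOX string printed above, was nearly closed outside the liver: it held 111 and 152 in Liv_OFF, 139.8 and 201 in Liv_ON, 14.7, 32.6 and 15.5 in Lung_OFF, 15.7, 23.0 and 20.5 in Lung_ON, 10.2, 11.6 and 11.1 in Panc_OFF and 16.9, 16.1 and 11.5 in Panc_ON. The lowest liver sample was above the highest of the others, and the log2 fold change against Lung_OFF was 2.67 ± 0.38 (SE), adjusted p = 1.1e-04. Foxa1 +30.4 kb, in intergenic sequence, held 351 and 299.5 in Liv_OFF and 46.9, 112 and 84.4 in Lung_OFF, a difference of 2.07 ± 0.43 (SE), adjusted p = 0.0012. One Foxa1 peak was called lower in Liv_OFF, Foxa1 +55.4 kb in a Mipol1 intron, at -2.33 ± 0.88 (SE), adjusted p = 0.038, a call lost without Liv_OFF replicate 1 or 2 or Lung_OFF replicate 1.

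Foxa2, the FOXA gene needed earliest in endoderm, was open at its start site in all organs, with differences under the fold for a call, while peaks around it differed in both directions. The 6 Foxa2 peaks called higher in Liv_OFF lay between +21.8 and +78.5 kb, inside the noncoding host gene. The 6 called lower were Foxa2 +33.3 and +92.5 kb and 4 upstream peaks between -44.7 and -75.5 kb. The start-site peak (Foxa2 +1.6 kb, chr2:148043346-148047377) held 2902 and 2724 in Liv_OFF, 2110.5 and 2549 in Liv_ON, 2037, 2511 and 2214 in Lung_OFF, 2308, 2043 and 2352 in Lung_ON, 2148, 1875 and 1733 in Panc_OFF and 1504, 1349 and 2032 in Panc_ON. The Liv_OFF samples were the highest by a small margin, and Liv_ON overlapped both lung groups. Between Liv_OFF and Lung_OFF its log2 fold change was 0.32 ± 0.15 (SE), adjusted p = 0.078, which was not called and turned to -0.09 under quantile normalization.

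Downstream of Foxa2, the Foxa2 +78.5 kb peak (chr2:147967763-147969258) held 396 and 373 in Liv_OFF, 219 and 316 in Liv_ON, 87.4, 197 and 142 in Lung_OFF, 98.8, 146 and 151 in Lung_ON, 156, 183 and 170.4 in Panc_OFF and 60.4, 60.7 and 76.6 in Panc_ON. The Liv_OFF samples were above all others, and Lung_OFF overlapped Panc_OFF. Liv_OFF exceeded Lung_OFF by 1.51 ± 0.30 (SE), adjusted p = 9.5e-04, and at the nearby Foxa2 +61.7 kb, with 453 and 425 against 157, 290.2 and 210.2 counts, by 1.04 ± 0.23 (SE), adjusted p = 0.0018. In the same noncoding host gene, Foxa2 +33.3 kb (chr2:148012859-148014475) went the other way: it held 351 and 355 in Liv_OFF, 395 and 325 in Liv_ON, 701, 864 and 902 in Lung_OFF, 807, 836 and 916 in Lung_ON, 625, 539.6 and 508 in Panc_OFF and 467, 487 and 739.6 in Panc_ON. Every liver sample was below every lung and pancreas sample, and the log2 fold change was -1.21 ± 0.18 (SE), adjusted p = 1.5e-04.

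Upstream of Foxa2, the Foxa2 -44.7 kb peak (chr2:148090935-148092305) had the largest negative difference between Liv_OFF and Lung_OFF among the members named here. It held 23.4 and 47.4 in Liv_OFF, 18.6 and 7.11 in Liv_ON, 271, 255 and 176 in Lung_OFF, 275, 122 and 154 in Lung_ON, 107, 162 and 82.4 in Panc_OFF and 68.4, 66.8 and 198 in Panc_ON. All 4 liver samples were below all lung and pancreas samples. The log2 fold change was -2.75 ± 0.51 (SE), adjusted p = 5.9e-04 for Liv_OFF against Lung_OFF and -3.78 ± 0.51 (SE), adjusted p = 1.4e-04 for Liv_ON against Lung_ON.

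Foxa3 had no member peak. The peak that covers its start region and that of Sympk (chr7:19023110-19025913), examined after the values were seen, had a mean of 1949 normalized counts in Liv_OFF, 1612 in Liv_ON, 1427 in Lung_OFF, 1366 in Lung_ON, 1405 in Panc_OFF and 1287 in Panc_ON. Its difference between Liv_OFF and Lung_OFF was 0.45 ± 0.11 (SE), adjusted p = 0.004, under the fold needed for a call. Reads in it cannot be assigned to one of the genes.

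Onecut1, also known as Hnf6 and needed for pancreatic duct and bile duct development, was the gene whose called peaks were all less open in Liv_OFF than in Lung_OFF. Its start-site peak (Onecut1 +0.5 kb, chr9:74861533-74863287) held 115 and 144 in Liv_OFF, 147 and 141 in Liv_ON, 198, 259 and 276 in Lung_OFF, 210.0, 216 and 205 in Lung_ON, 176, 113 and 127 in Panc_OFF and 107, 94.1 and 229 in Panc_ON. Both Liv_OFF samples were below all Lung_OFF samples but within the range of Panc_OFF. Its log2 fold change in Liv_OFF was -0.91 ± 0.31 (SE), adjusted p = 0.025 against Lung_OFF and -0.09 ± 0.31 (SE), adjusted p = 0.83 against Panc_OFF. The call against Lung_OFF was lost in 2 of 30 alternatives. With Smad4 on, the difference of Liv_ON from Lung_ON was -0.54 ± 0.31 (SE), adjusted p = 0.20, not called.

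Onecut1 +6.3 kb, shown above with its AP-1 string, held 93.8 and 87.8 in Liv_OFF and 152, 209.7 and 224 in Lung_OFF (-1.08 ± 0.30 (SE), adjusted p = 0.0083). Onecut1 +40.5 kb, an intergenic peak, was near closed in liver: it held 11.1 and 15.3 in Liv_OFF, 37.3 and 17.3 in Liv_ON, 116, 43.5 and 65.5 in Lung_OFF, 172, 98.7 and 56.9 in Lung_ON, 56.4, 83.1 and 43.5 in Panc_OFF and 81.8, 87.9 and 214 in Panc_ON. Liv_OFF was below every lung and pancreas sample, with a wide spread among the latter, and the log2 fold change against Lung_OFF was -2.32 ± 0.53 (SE), adjusted p = 0.0024.

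The start region of Onecut2, a paralog first described in liver, was covered by a single broad peak (Onecut2 +3.1 kb, 17728 bp) that held 7403 and 6934 in Liv_OFF, 5599 and 6365 in Liv_ON, 5919, 5959.8 and 5283 in Lung_OFF, 5519.8, 5221 and 5562 in Lung_ON, 5867, 5569 and 5739 in Panc_OFF and 6199, 5850.4 and 5753 in Panc_ON. Its level varied little, with Liv_OFF highest and Liv_ON overlapping the others. Its log2 fold change between Liv_OFF and Lung_OFF was 0.33 ± 0.07 (SE), adjusted p = 0.0013, short of the fold for a call, and turned to -0.07 under quantile normalization. Smaller peaks within the gene differed by more, with 1.36 ± 0.34 (SE), adjusted p = 0.0038 at Onecut2 +14.0 kb and 1.57 ± 0.43 (SE), adjusted p = 0.0074 at Onecut2 +55.9 kb, and one was lower in liver, Onecut2 +38.1 kb, at -1.12 ± 0.33 (SE), adjusted p = 0.011.

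Onecut3, the third paralog, had its start-site peak at Onecut3 +1.1 kb (chr10:80494484-80497372), with 761 and 755 in Liv_OFF, 565 and 675 in Liv_ON, 378, 569 and 514 in Lung_OFF, 579, 581 and 561 in Lung_ON, 744, 631 and 563 in Panc_OFF and 494, 407 and 514 in Panc_ON. Liv_OFF lay above Lung_OFF, whereas Liv_ON overlapped Lung_ON. The log2 fold change of Liv_OFF against Lung_OFF was 0.66 ± 0.17 (SE), adjusted p = 0.0056, and this call was lost in 7 of 30 alternatives, among them quantile normalization, a correction for GC content and edgeR on the recovered reads. Just upstream, Onecut3 -1.2 kb (chr10:80493420-80493823) went the other way, with 12.3 and 18.1 in Liv_OFF, 30.3 and 40.6 in Liv_ON, 31.3, 67.4 and 46.5 in Lung_OFF, 92.1, 85.3 and 68.1 in Lung_ON, 118, 116 and 111 in Panc_OFF and 89.8, 60.7 and 75.1 in Panc_ON. Liv_OFF was lowest and Panc_OFF highest, and Liv_ON overlapped Lung_OFF. The log2 fold change of Liv_OFF at this peak was -1.56 ± 0.33 (SE), adjusted p = 0.0014 against Lung_OFF and -2.86 ± 0.33 (SE), adjusted p = 1.3e-05 against Panc_OFF. Onecut3 -5.0 kb differed between Liv_OFF and Lung_OFF by 0.75 ± 0.19 (SE), adjusted p = 0.0045, a call lost in 6 alternatives, and the intronic Onecut3 +10.1 kb by -1.02 ± 0.28 (SE), adjusted p = 0.0072.

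**Figure D2:**
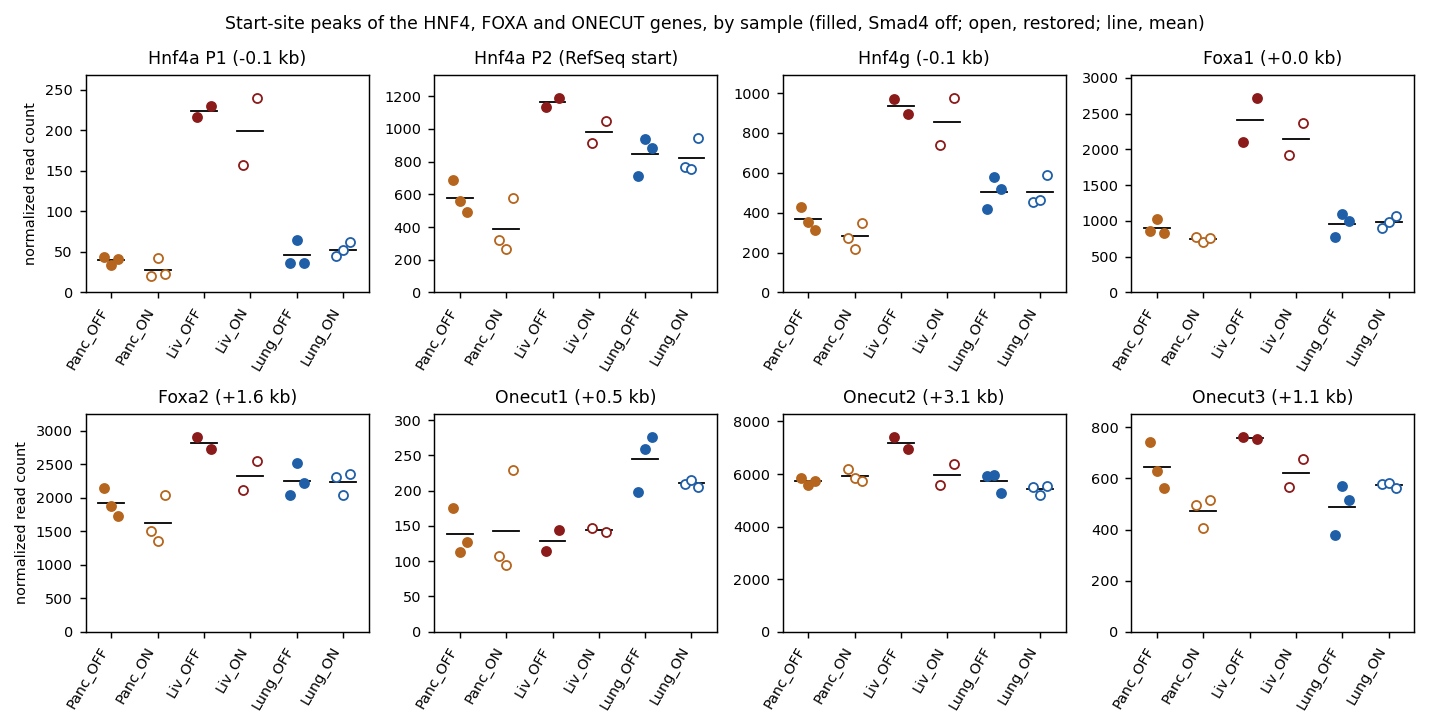
Normalized read counts (y axis, linear and from 0) at the start-site peaks of the factor genes in each of the 16 samples by group (x axis), with filled points for mice with Smad4 off, open points for mice with Smad4 restored and a line for the group mean. The liver points of Hnf4a P1, Hnf4g and Foxa1 stand above the lung and pancreas points, those of Onecut1 are below the Lung_OFF points, and Foxa2 and Onecut2 differ little.

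Per kb of peak, the start sites ranked as follows in Liv_OFF: Foxa1 at 913 normalized counts per kb, Foxa2 at 698, Onecut2 at 404, Hnf4g at 296, Hnf4a P1 at 273, Onecut3 at 262 and Onecut1 at 73.6. In Lung_OFF the order was Foxa2 at 559 normalized counts per kb, Foxa1 at 363, Onecut2 at 323, Onecut3 at 169, Hnf4g at 160.3, Onecut1 at 139 and Hnf4a P1 at 55.9. Hnf4a P1 was thus the least open of those listed in lung. The order leaves out the downstream Hnf4g start site, with a mean of 19.1 normalized counts in Lung_OFF. It also leaves out the non-member Hnf4a P2, at 494 per kb in Liv_OFF and 359 in Lung_OFF, above Onecut2 in both. Foxa1 moved ahead of Foxa2 in the liver.

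The HNF4 and Foxa1 loci were also more open in liver than in the primary site. For Liv_OFF against Panc_OFF, 44 members were called higher and 11 lower, where 26.2% of all peaks were called higher and 32.3% lower. Hnf4g contributed 18 higher and 1 lower (median log2 fold change 2.26), Foxa1 7 and 1, Hnf4a 6 and 0, Foxa2 6 and 5, Onecut2 4 and 1, Onecut1 2 and 1 and Onecut3 1 and 2. Comparisons that share Liv_OFF samples are not independent of each other.

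Lung and pancreas were closer to each other, over all peaks (17.3% called) as well as over the members (19.2% called). For Lung_OFF against Panc_OFF, 10 members were called higher and 9 lower, against 6.59% and 10.7% of all peaks. Hnf4g had 8 of the 10 higher calls, and Hnf4a and Onecut1 had 1 each. The lower calls fell to Onecut3 (4), Onecut2 (3) and Foxa1 (2). These counts depended on single samples: the total of 19 was 10 without Panc_OFF replicate 2, 9 without Panc_OFF replicate 3 and 12 without Lung_OFF replicate 3.

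With Smad4 restored, the organ differences had the same form for HNF4 and Foxa1. For Liv_ON against Lung_ON, 29 members were called higher and 14 lower, against 17.6% and 18.2% of all peaks, and the total of 43 was 16 without Liv_ON replicate 2. Hnf4g had 11 higher and 0 lower, Foxa1 6 and 2, Hnf4a 4 and 0, Foxa2 3 and 8, Onecut2 3 and 1, Onecut3 2 and 1 and Onecut1 0 and 2. For Liv_ON against Panc_ON, 46 were called higher and 17 lower, against 27.1% and 32.2% of all peaks, with 17 of the higher calls at Hnf4g.

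Lung_ON and Panc_ON differed mainly at Hnf4g and Foxa2. Here 31 members were called higher in Lung_ON and 3 lower, against 12.8% and 14.9% of all peaks. Hnf4g had 11 higher, Foxa2 10, Hnf4a and Foxa1 3 each, Onecut1 and Onecut3 2 each, and Onecut2 had 2 of the 3 lower calls. The total of 34 was 18 without Panc_ON replicate 1 and 19 without Lung_ON replicate 3.

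**Figure D3:**
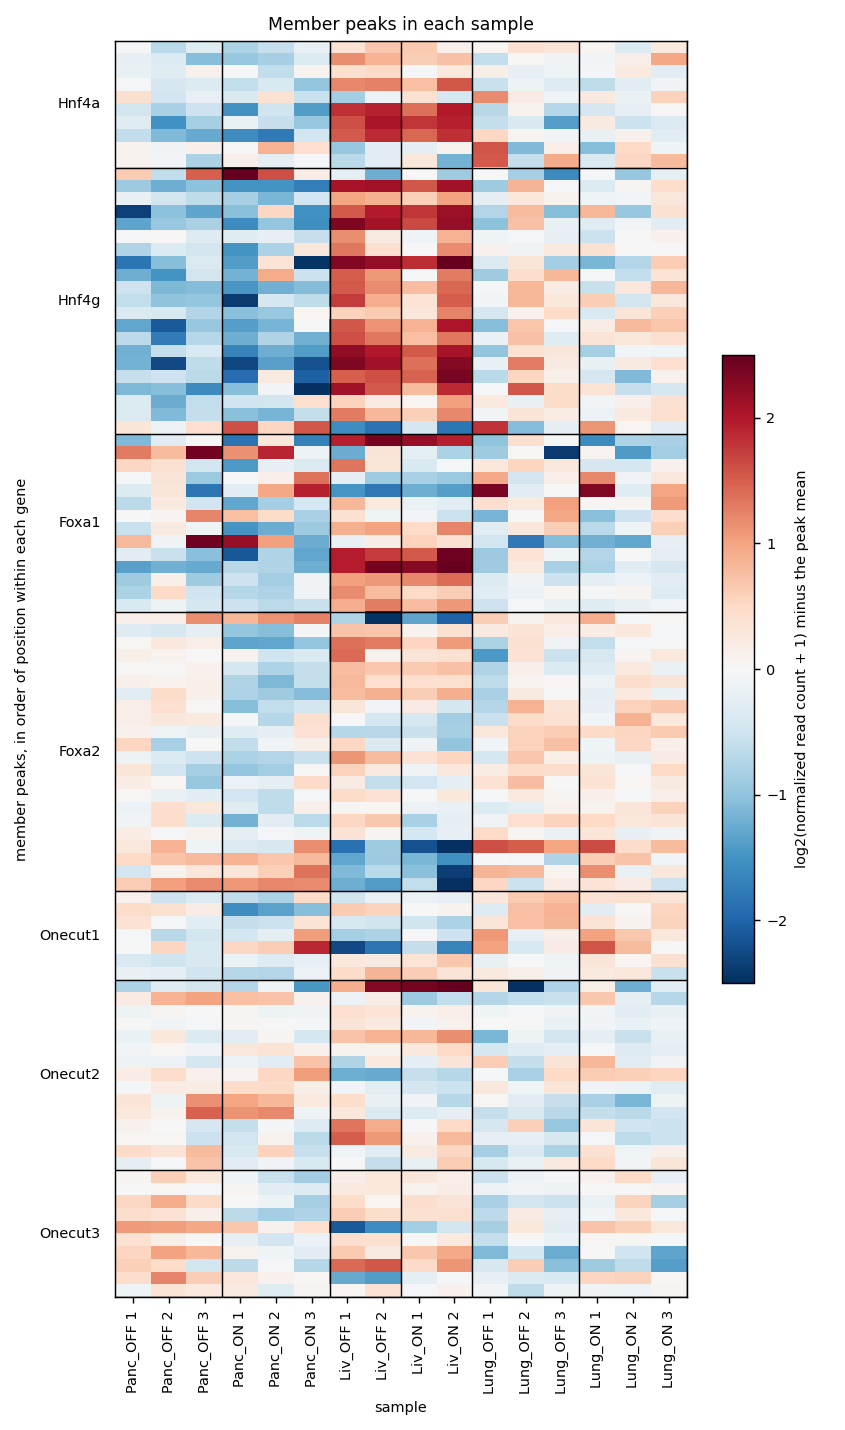
Level of all 99 member peaks (rows, by gene and chromosomal position) in the 16 samples (columns, by group), as log2 of the normalized count plus 1 minus the mean of that peak (color scale, red above and blue below the mean). The 4 liver columns are high over most Hnf4a, Hnf4g and Foxa1 rows and split over the Foxa2 rows, and the Panc_ON columns are low over part of the Foxa2 and Onecut3 rows.

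Restoration of Smad4 was examined in each organ separately. In the pancreas 6 members were called lower in Panc_ON and 0 higher, against 3.06% of all peaks lower and 0.364% higher, and the median log2 fold change of all 99 members was -0.23, against 0.04 over all peaks. In this fit, which has no replicate block, the 6 belonged to Foxa2 (3), Onecut3 (2) and Onecut1 (1). The count was 2 without Panc_OFF replicate 2, 3 without Panc_OFF replicate 3 or Panc_ON replicate 2, and 10 by DESeq2. The shares of all peaks called in these alternatives are not given here. The summed tumor epithelial, hepatocyte (Ttr, at 20.4 to 54.5 against 79.4 to 96.5) and acinar markers were also lower in Panc_ON than in Panc_OFF, and the summed endocrine and leukocyte markers were higher, each without overlap. The part of these markers in the calls was not tested.

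The Foxa2 peaks that fell in the pancreas lay together downstream of the gene. Foxa2 +78.5 kb fell from 156, 183 and 170.4 in Panc_OFF to 60.4, 60.7 and 76.6 in Panc_ON, without overlap (-1.36 ± 0.27 (SE), adjusted p = 0.022). Foxa2 +41.8 kb fell from 292, 478 and 381 to 204, 187 and 165 (-1.02 ± 0.24 (SE), adjusted p = 0.041). Foxa2 +53.3 kb fell from 110.2, 107 and 111 to 59.6, 45.8 and 66.7 (-0.94 ± 0.25 (SE), adjusted p = 0.066). Each of these Foxa2 peaks had all 3 Panc_ON samples below all 3 Panc_OFF samples. They are named because they were called lower, so this lack of overlap adds no support. The Foxa2 start site was not called (-0.25 ± 0.13 (SE), adjusted p = 0.34).

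Peaks of Onecut3 (2 of 10) and Onecut1 (1 of 7) were also called lower in Panc_ON. Onecut3 -5.0 kb (chr10:80488908-80490737) held 1063 and 945 in Liv_OFF, 911 and 916 in Liv_ON, 442, 803 and 601 in Lung_OFF, 668, 837 and 681 in Lung_ON, 949.7, 891 and 766 in Panc_OFF and 442, 389 and 409 in Panc_ON. All Panc_ON samples lay below all Panc_OFF samples, with Lung_OFF replicate 1 at the level of Panc_ON, and the log2 fold change in the pancreas was -1.07 ± 0.17 (SE), adjusted p = 0.011. Onecut3 -23.2 kb had a log2 fold change of -0.82 ± 0.23 (SE), adjusted p = 0.078. Onecut1 +4.9 kb (chr9:74866464-74867199) showed the largest fall of the 6, with 106 and 98.9 in Liv_OFF, 67.6 and 71.1 in Liv_ON, 53.4, 113 and 122 in Lung_OFF, 55.0, 68.1 and 97.0 in Lung_ON, 92.2, 88.4 and 75.9 in Panc_OFF and 22.2, 26.0 and 31.4 in Panc_ON. Its Panc_ON samples were all below its Panc_OFF samples, at -1.66 ± 0.31 (SE), adjusted p = 0.018.

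In the liver and the lung no member was called. For Liv_ON against Liv_OFF, limma called 0 members, where 0.55% of all peaks were called in either direction, and 6 members (6.06%, against 12.1% of all peaks) had an unadjusted p under 0.05. DESeq2 called 1 member in the liver, with no share of all peaks set beside it. For Lung_ON against Lung_OFF, limma called 0 members, where 0.00366% of all peaks were called, 5 (5.05%, against 7.11%) had an unadjusted p under 0.05, and edgeR and DESeq2 called 0. At the start sites, the restoration difference of Foxa1 was -0.17 ± 0.17 (SE), adjusted p = 0.73 in liver and 0.06 ± 0.14 (SE), adjusted p = 0.98 in lung. That of Hnf4a P1 was -0.20 ± 0.38 (SE), adjusted p = 0.87 in liver and 0.24 ± 0.31 (SE), adjusted p = 0.94 in lung. With these standard errors a change of modest size at these start sites was not detectable.

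Averaged over the 3 organs, 3 members were called lower with Smad4 on and 0 higher, against 3% and 3.61% of all peaks. The share called lower was thus near that of all peaks. The 3 members were Onecut1 +4.9 kb (-0.85 ± 0.19 (SE), adjusted p = 0.02), Foxa2 +78.5 kb (-0.65 ± 0.17 (SE), adjusted p = 0.034) and Foxa1 +67.5 kb (-0.81 ± 0.25 (SE), adjusted p = 0.068). In pancreas, liver and lung, Onecut1 +4.9 kb changed by -1.66, -0.56 and -0.34 and Foxa2 +78.5 kb by -1.36, -0.55 and -0.06. Both averages thus came mostly from the pancreas, while Foxa1 +67.5 kb changed by -0.82, -1.01 and -0.61. The Foxa1 call was lost in 8 alternatives, the Foxa2 call in 4 and the Onecut1 call in 1. With the replicate block in the lungs only, 5 members were called, 4 lower and 1 higher, Onecut1 +40.5 kb (0.79 ± 0.25 (SE), adjusted p = 0.067). Between 1 and 6 members were called when a sample was left out. The count was 1 without Liv_OFF replicate 1, Liv_ON replicate 1 or Lung_OFF replicate 2, 5 without Liv_ON replicate 2 or Lung_OFF replicate 3, and 6 without Lung_OFF replicate 1.

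**Figure D4:**
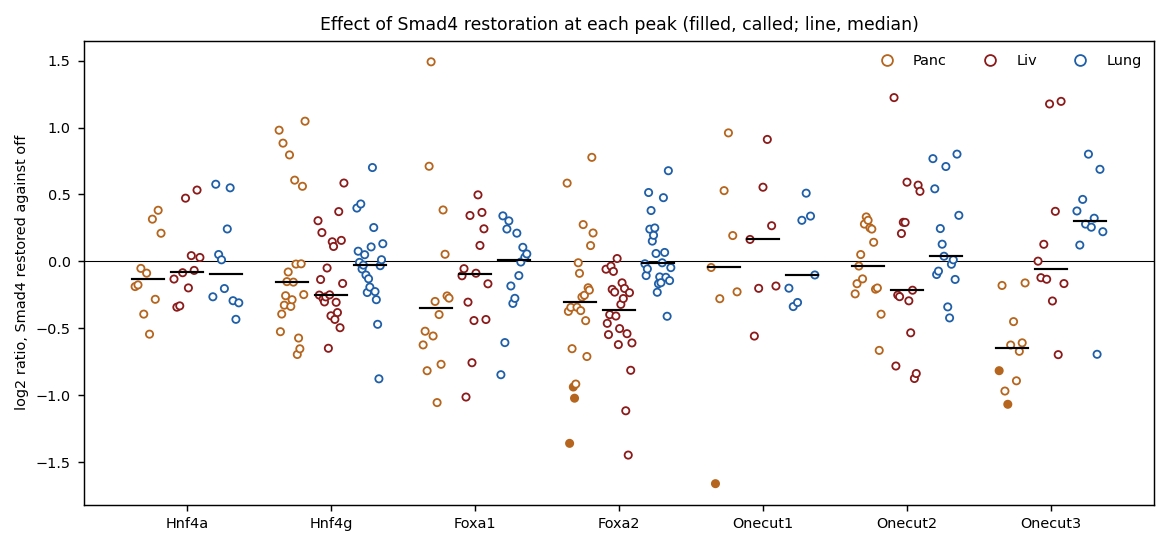
Log2 fold change of Smad4 ON against OFF (y axis) of each member peak by gene (x axis), one point per peak and one color per organ, with called peaks filled and a line for the median of each gene and organ. The 6 filled points, at Foxa2, Onecut1 and Onecut3, are all of the pancreas and below 0.

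Whether restoration acted differently in the organs was tested by the difference of these effects. In the fit without a block, limma called 0 members, and 0% of all peaks, for Liv minus Lung, for Liv minus Panc or for Lung minus Panc. The members with an unadjusted p under 0.05 were 3 (3.03%, against 5.25% of all peaks), 11 (11.1%, against 3.95%) and 15 (15.2%, against 11%). DESeq2 called 8 members for Lung minus Panc, and the share of all peaks it called is not given here. Same-numbered lung samples deviated from their group means together to an uneven degree (correlations 0.491, 0.124 and 0.214), and the labels do not pair them. The replicate block in the lungs only was chosen from these same values, and a block in every organ gave fewer calls. With the block in the lungs only, 7 members were called for Lung minus Panc, where 1.27% of all peaks were called higher. All 7 had a more negative change in the pancreas than in the lung. They were Foxa2 +41.8, +53.3, +61.7 and +78.5 kb, Onecut3 -5.0 and -23.2 kb and Onecut1 +4.9 kb. The difference at Onecut3 -5.0 kb was 1.35 ± 0.18 (SE), adjusted p = 0.016 with the block, against an adjusted p of 0.23 without it. At Foxa2 +78.5 kb it was 1.30 ± 0.29 (SE), adjusted p = 0.061 with the block and an adjusted p of 0.27 without it. The same block raised the lower calls of the pancreas itself from 6 to 11, where 4.88% of all peaks were then called lower, and the calls it added included Foxa1 +40.6 kb (-1.05 ± 0.29 (SE), adjusted p = 0.055). The count for Lung minus Panc was also 8 without Lung_OFF replicate 2, again with no share of all peaks set beside it.

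The summed count over all peaks of a gene gave the order of the groups for the locus as a whole. Hnf4a had means of 1699 normalized counts in Liv_OFF, 1591 in Liv_ON, 669 in Lung_OFF, 644 in Lung_ON, 464 in Panc_OFF and 406 in Panc_ON. Hnf4g followed the same order of organs, with 3891, 3566, 1755 and 1716 in Liv_OFF, Liv_ON, Lung_OFF and Lung_ON and 1031 and 979.8 in Panc_OFF and Panc_ON. For these genes and for Foxa1 (3554 in Liv_OFF and 3308 in Liv_ON against 1476 in Lung_ON) the liver groups overlapped each other and did not overlap the next group. The Onecut1 locus was highest in lung, at 1024 in Lung_OFF and 1022 in Lung_ON, and 840.4 in Liv_ON did not overlap with either, although 1 Panc_ON sample reached the lung level. The Foxa2 sum ran from 6641 in Liv_OFF to 3887 in Panc_ON. The Onecut3 sum ran from 2837 in Liv_OFF to 1735 in Panc_ON, and each group overlapped the next in that order.

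Across the 16 samples, which share libraries and depth with each other, the locus sums of Hnf4a and Hnf4g correlated with r = 0.964, Hnf4a and Foxa1 with 0.942 and Hnf4g and Foxa1 with 0.915. Onecut1 had lower values, with r = 0.245 to Hnf4a, 0.344 to Hnf4g and 0.046 to Foxa1. Among the other genes, those most like Hnf4a were Grhl2 (0.984), Rnf220 (0.982) and Atp11b (0.980), and those most like Hnf4g were Dsc2 (0.990), Abhd17c (0.986) and Abcd3 (0.985). Foxa1 was most like Epcam (0.988), the epithelial cell adhesion gene, with Arfgef1 and Pawr next (0.987 each). For Foxa2 the closest were Gramd1b (0.973), Lama5 (0.970) and Faah (0.970), and for Onecut1 they were Dhx8 (0.928), Bcas1 (0.923) and Dhrs7c (0.918). Onecut2 was closest to Zmym2 (0.954) and Onecut3 to Spock3 (0.895). The samples fall into organs, so these values describe the likeness of organ patterns and carry no test.

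The motif strings in the member peaks were counted over whole peaks. An AP-1 string was present in 46 of 99 (46.5%, against 51.4% of all peaks), a FOX string in 18 (18.2%, against 14.1%), a GATA string (AGATAAG) in 17 (17.2%, against 12.5%), an ONECUT string in 12 (12.1%, against 10.0%), a KLF string (CCACACCC) in 9 (9.09%, against 9.42%), an HNF1 string in 5 (5.05%, against 3.34%) and an HNF4 string (CAAAGTCCA) in 4 (4.04%, against 2.24%). All 5 HNF1 strings were in the 38 peaks called higher in Liv_OFF than in Lung_OFF (13.2%, against 5.04% of all peaks called higher), 3 of them at Hnf4g and 2 at Foxa2. The FOX string was in 9 of these 38 (23.7%, against 16.3%) and in 1 of the 15 called lower (6.67%, against 13.7% of all peaks called lower). By gene it was most frequent at Foxa1, in 6 of 14 peaks (42.9%). AP-1 strings were in 18 of the 38 peaks called higher (47.4%, against 36.9% of all peaks called higher) and in 9 of the 15 called lower (60%, against 71.4%). The 38 peaks had a median width of 839.5 bp, against 627 bp for all peaks called higher. In the peak center alone they held FOX in 3 (7.89%, against 7.08%), HNF1 in 1 (2.63%, against 2.25%) and AP-1 in 11 (28.9%, against 19.9%). Over all 99 members the central share was 6.06% for FOX (against 6.04%) and 1.01% for HNF1 (against 1.38%). It was 1.01% for ONECUT (against 4.21%), 2.02% for HNF4 (against 1.03%) and 8.08% for GATA (against 5.05%).

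Other genes of the endoderm network, from a list of 16, also had more peaks called higher than lower in liver. Of their 221 peaks, 80 were called higher and 39 lower in Liv_OFF than in Lung_OFF (median 0.29 on the log2 scale). These are 36.2% and 17.6%, against 22.9% and 26.8% of all peaks. Gata4, a zinc finger factor of early endoderm, had 11 higher and 1 lower of 26 and Ppara, a nuclear receptor of fatty acid use, 10 and 0 of 17. Sox9, a factor of ducts and progenitors, went the other way with 3 higher and 10 lower of 21. Other FOX genes, outside FOXA, were balanced, with 66 higher and 62 lower of 240 peaks (27.5% and 25.8%, median 0.08). Genes known as HNF4 targets, 8 of 10 with a peak, had 21 higher and 19 lower of 70 (30.0% and 27.1%, median 0.21). Among them Vil1 was at 5 and 0 of 10 and Cdh17 at 1 and 8 of 14. On restoration in the pancreas, the endoderm network list had 1 peak called higher and 17 lower (7.69%), the other FOX genes 0 and 15 (6.25%) and the HNF4 targets 0 and 8 (11.4%), beside 6.06% of the members and 3.06% of all peaks called lower.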

How the data were processed

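ATAC-seq was performed on sorted mKate2+ tumor cells from 16 mice, 1 library per mouse. The authors trimmed 150-bp paired reads and mapped these with Bowtie2 (mm10). MACS2 peaks with p of at most 0.001 and no overlap with blacklisted regions were joined into a single atlas wherever they lay within 500 bp, and featureCounts gave reads per peak, which were then divided by DESeq2 size factors. The deposited values are these normalized counts, a signal per peak and sample. The table is described as filtered, and the filter, any shift of reads for the Tn5 offset and any removal of duplicates are not given in the sources used here. Merging makes peaks of very different width, so levels are compared between peaks per kb, apart from the ratio of Hnf4a P1 to P2, which compares samples. In every library 100% of values were whole multiples of 1 read, which gave back 22994669 to 38218315 reads in peaks (1.43% to 3.56% mitochondrial, left out of all tests). Replicates differed by more than counting noise (chi-square per degree of freedom 3.70 to 20.9). The pairs with Panc_ON replicate 3 were at 20.9 and 14.2, against 3.70 between Panc_ON replicates 1 and 2. Those with Lung_OFF replicate 1 were at 18.7 and 16.9.

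The member genes, the other gene lists and the tests were chosen with earlier results of these data known. Peaks were assigned to the nearest protein-coding start site of GENCODE vM21 basic within 100 kb. log2(normalized count + 1) of all 136630 nuclear peaks was fitted in limma 3.58.1 (R 4.3.3) with 6 group means, intensity trend and robust variances, and p-values were adjusted by the Benjamini-Hochberg method over all peaks. Fold changes on this scale understate the change of peaks with few reads. Errors are SE. The named peaks were the start-site peaks, up to 2 called peaks of each gene and direction between Liv_OFF and Lung_OFF, and up to 3 called peaks of each direction on restoration, by smallest p, with no overlap between replicates of the former. Hnf4a +3.8 and +5.6 kb, Hnf4g +105.8 kb, Foxa1 +30.4 kb, Foxa2 +41.8 and +53.3 kb, Onecut3 -23.2 kb and the peaks at the Hnf4a P2 and Foxa3 start regions were added after their values were seen. The 3 genes most like each locus were ranked by Pearson r of summed counts. Alternatives were another pseudocount, TMM and quantile normalization, GC and neighborhood corrections, replicate blocks, a minimum count, only the compared groups, stricter thresholds, a 50 kb window, edgeR 4.0.16 and DESeq2 1.42.0 on the recovered reads, and leaving out each sample. The limma fit was tested on simulated data. Same-numbered samples deviated from their group means together in the lung (correlations 0.491, 0.124 and 0.214) but not in the pancreas (-0.330, 0.0271 and -0.330) or the liver (0.0834), and the labels do not tie a number to a shared mouse or day, so an alternative fit paired the lung samples on this ground alone. Sequences were read from GRCm38 and RefSeq, with 3 of the start sites matched for printing. Some items, among them an allele that all groups share, are not reported here.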

Additional observations from a re-analysis of the deposited data

How the results depend on the processing

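Under 30 alternatives, 14 of them other than leaving out a sample, 30 of the 32 named log2 fold changes never changed sign, and 19 also kept their side of the threshold in every alternative that gave a value, 28 to 30 for each peak, since some peaks drop out under the minimum count or the 50 kb window and an average over organs needs all groups. The exceptions in sign were the start-site peaks Foxa2 +1.6 kb (-0.0911) and Onecut2 +3.1 kb (-0.0732) between Liv_OFF and Lung_OFF under quantile normalization, neither of which was called. With 1 sample left out at a time, the called members ranged from 37 to 56 for Liv_OFF against Lung_OFF, 48 to 56 for Liv_OFF against Panc_OFF, 9 to 27 for Lung_OFF against Panc_OFF, 16 to 45 for Liv_ON against Lung_ON, 48 to 64 for Liv_ON against Panc_ON, 18 to 42 for Lung_ON against Panc_ON, 2 to 8 for restoration in the pancreas, 0 to 1 in the liver, 0 to 0 in the lung, 1 to 6 averaged over organs, and 0 to 8 for Lung minus Panc, with 0 to 0 for Liv minus Lung and Liv minus Panc. In the pancreas the count was 2 without Panc_OFF replicate 2 and 3 without Panc_OFF replicate 3 or Panc_ON replicate 2, and in the liver it was 1 without Lung_OFF replicate 1 or 2, which enter through the pooled spread. Where a liver group was left with 1 sample, that sample was assumed to vary like the other groups.

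With thresholds of 1 and 0.05 the called members were 11 for Lung_OFF against Panc_OFF, 19 for Lung_ON against Panc_ON and 0 for the average over organs, where a 50 kb window left 1. Restoration in the pancreas gave 10 calls under quantile normalization and DESeq2 and 11 with the replicate block in the lungs only. In the liver the block in the lungs only, the neighborhood correction and DESeq2 each gave 1, and averaged over organs the block gave 5 and DESeq2 6. Lung minus Panc gave 7 with the block in the lungs only, 1 with a replicate block in every organ, with or without the GC correction, and 8 by DESeq2. The block changed no other count by more than 1.5 times. The cause of these changes was not tested, and unless stated the share of all peaks called in the same alternative is not given. For Liv_OFF against Lung_OFF, 52 of the 53 called members were still called by DESeq2 and by edgeR, and 39 without Lung_OFF replicate 1. The GC correction gave 35157 higher and 31497 lower of all peaks, against 31293 and 36598. The average over organs could not be fitted with only the groups compared. Precision is limited by 2 mice per liver group, and the data do not measure RNA or protein of these factors.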
